A study of Mus musculus with 4 samples.

Results

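The 10 genes described here belong to the mammalian circadian clock: the activators Clock, Npas2 and Arntl (the gene also called Bmal1), the repressors Per1, Per2, Per3 and Cry1, the nuclear receptor genes Nr1d1 and Nr1d2, and the output gene Dbp. They were taken by symbol from both of the authors' deposited tables, which share 24182 genes, and all 10 were listed in each, with Arntl under that name. RNA came from small-intestinal crypts, the pits of the gut lining that hold its stem cells and Paneth cells, of male C57BL/6J mice aged 9 weeks, in 4 groups with 1 labelled sample each: fed without tetracycline, fasted without tetracycline, fed with tetracycline and fasted with tetracycline. Feeding or fasting lasted 24 hours, and the antibiotic was given for 21 days to deplete what the series' text calls AKK. The study asked how that depletion alters expression in fed against fasted mice. The time of day at which tissue was taken is not given in the sources used here, and neither is the number of mice behind a library.

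In the clock, the protein pairs CLOCK:ARNTL and NPAS2:ARNTL switch on genes through short E-box sequences. Among these are the Per and Cry genes, whose proteins then block the activators, so that levels rise and fall over a day. NR1D1 and NR1D2 repress Arntl, Npas2, Clock and Cry1, and DBP activates genes through the D-box. Clocks of the gut follow the time of meals closely, and Per1 is also known to respond directly to glucocorticoid hormones and to cyclic AMP signals.

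The sequences in front of 3 of the repressors are shown because they hold the E-box and D-box letters through which the loop is known to run. RefSeq (GRCm38.p6) gave 13 promoter windows for 9 of the members, each running from 250 bases before to 50 after a start site. Per2 had none, so the counts of windows do not cover it. Clock had 3 windows, and Per1 and Arntl had 2 each, those of Arntl sharing most of their bases. The search on both strands covered the E-box CACGTG, the related E-prime box CACGTT, the D-box TTATGTAA or TTACGTAA, the ROR element AGGTCA, to which NR1D proteins also bind, and the cyclic AMP element TGACGTCA. No letters are shared between matches in the windows below, and capitals mark a match on either strand. The windows are Per1 at chr11:69098699-69098998 (plus strand), Cry1 at chr10:85185005-85185304 (minus strand) and Per3 at chr4:151044616-151044915 (minus strand).
Per1: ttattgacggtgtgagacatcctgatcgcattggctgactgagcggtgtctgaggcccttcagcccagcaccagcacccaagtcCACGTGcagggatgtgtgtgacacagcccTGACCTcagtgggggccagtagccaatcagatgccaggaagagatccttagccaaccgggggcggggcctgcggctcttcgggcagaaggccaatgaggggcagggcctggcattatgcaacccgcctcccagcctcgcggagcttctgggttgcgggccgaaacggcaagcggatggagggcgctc
Cry1: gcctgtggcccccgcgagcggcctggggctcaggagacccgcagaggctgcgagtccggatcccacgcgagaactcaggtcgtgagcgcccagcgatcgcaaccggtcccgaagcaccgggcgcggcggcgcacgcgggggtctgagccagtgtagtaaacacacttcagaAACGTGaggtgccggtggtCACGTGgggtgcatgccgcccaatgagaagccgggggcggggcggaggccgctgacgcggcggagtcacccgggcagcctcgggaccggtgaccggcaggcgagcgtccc
Per3: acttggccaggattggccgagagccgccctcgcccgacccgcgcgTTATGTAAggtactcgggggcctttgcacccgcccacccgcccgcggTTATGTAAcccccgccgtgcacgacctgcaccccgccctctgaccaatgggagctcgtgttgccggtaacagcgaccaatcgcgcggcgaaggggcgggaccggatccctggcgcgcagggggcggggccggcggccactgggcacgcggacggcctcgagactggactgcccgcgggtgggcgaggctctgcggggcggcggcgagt

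Counted from the start site, the E-box begins at -166 in the Per1 window shown, 1 of 2 for that gene, and at -60 in Cry1, and 2 of the 13 windows held one, against 7.15% of all 32851 promoter windows. The E-prime box was in 2 windows (Cry1 and Nr1d1; 4.69% of all), and the D-box in 1, where Per3 carries it with first bases at -205 and -158 (1.06% of all). The ROR element was in 4 windows, that of Nr1d2 and 1 of the start sites each of Per1, Clock and Arntl (16.3% of all). The cyclic AMP element was in 0 windows (1.79% of all). A match is a description of the letters and does not show binding.

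The authors' DESeq2 tables give 1 mean per gene over all libraries, but the mean is a sum of whole counts, each divided by its library's size factor, so the counts could be recovered. This gave 2 libraries per feeding state in each table where the labels list 1 sample, and these cannot be tied to labelled samples. Whether they come from separate mice is not given, so the authors' p-values measure the spread between libraries, which may be technical. Recovered values are written as normalized counts (count over size factor), library 1 being the one with the larger size factor, and the tables were scaled separately. The sign of a fold change is not named in any column; positive values were taken as higher in fasted mice because the tables' names put fasting first.

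The means summed to 65863261 normalized counts without and 65327199 with tetracycline, and the largest size factor was 1.17 and 1.75 times the smallest. The members' means lay between 205 and 4722 without and between 323.5 and 5698 with tetracycline, and each member had an adjusted p in both tables. The 6 epithelial markers (Epcam, Cdh1, Krt8, Krt18, Krt19, Vil1) had means from 17206 to 184435 without and from 15521 to 154047 with tetracycline, and all 5 crypt markers were listed. All 6 lymphocyte markers were present too, and their summed normalized counts in libraries 1 and 2 were 9610 and 12702 in fed against 3912 and 7580 in fasted mice without tetracycline. With tetracycline the sums were 38379 and 9870 in fed against 12244 and 2005 in fasted mice. Without tetracycline, 3 of the 6 lymphocyte, 3 of the 6 stromal and 1 of the 5 myeloid markers were called lower in fasted mice, and the Paneth cell gene Defa24 was called higher (log2 change 1.15) in the authors' deposited table. With tetracycline 0 of these were called by the same DESeq2 test, while Defa24 was at 1.27, and the lists' medians were -1.71 for lymphocyte, -1.61 for myeloid and -1.03 for stromal markers, against -1.41, -1.09 and -1.85 without. The crypt list had medians of 0.61 without and 0.78 with tetracycline, with Olfm4 going the other way at -0.46 and -0.51, uncalled. Lgr5 and Ascl2, genes of crypt stem cells, summed to 1613 and 2101 in fasted against 1218 and 865 in fed mice without tetracycline, and to 2668 and 667 against 804 and 1355 with it. Myeloid sums were 1877 and 3124 in fed against 996 and 1355 in fasted mice without tetracycline, and 5008 and 2270.4 against 1723 and 515 with it. Stromal sums were 1563 and 2895 against 762 and 1458, and 3692 and 1486 against 2023 and 746. Their part in the clock values was not tested. In such a tissue mixture, fewer cells of a type and less RNA per cell cannot be told apart.

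Per length, Nr1d1 was the most abundant member. Its normalized counts per kilobase of exon (GENCODE M21 gene models) had a median of 1664 over the 8 libraries and ran from 844 to 2761. Npas2, Per1, Nr1d2 and Clock followed with medians between 352 and 382, and their ranges over libraries overlapped, so their order is not resolved. Arntl, Cry1 and Dbp had medians of 277, 213 and 190, again with overlapping ranges. Each of them also overlapped Per1 (195.6 to 504), so the step between these sets of genes is not resolved. Per2, at a median of 85.1 (59.6 to 141), still overlapped Dbp and Cry1, and Per3 was lowest of the 10, at 27.1 (15.7 to 40.5), below the range of Per2.

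Without tetracycline, Per1 was the only member called, and it was higher in fasted mice. Of the 10 members, 1 passed an adjusted p under 0.05 in the authors' deposited table, beside 2.27% of all 18100 genes tested in either direction and 1.06% in the direction of Per1. The changes of 6 members were above and 4 below 0, with a median log2 change of 0.16 beside 0.0067 for all genes tested. In 5 of the 10 both fasted libraries lay above both fed ones, and in 0 both lay below, beside 18.4% and 25.8% of the 9160 genes with a mean of 200 to 6000. The 0 turns on Arntl, whose higher fasted library (2182.2) and lower fed library (2182.1) were nearly tied. Among the 5, the lower fasted and higher fed library were close for Clock (4821.2 and 4774.5) and Per2 (494.7 and 476.2). Leaving out fasted library 1, a step chosen after seeing the data, gave 5 higher and 4 lower, beside 30.6% and 44.8% of genes. The members regulate one another and are not independent.

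**Figure D1:**
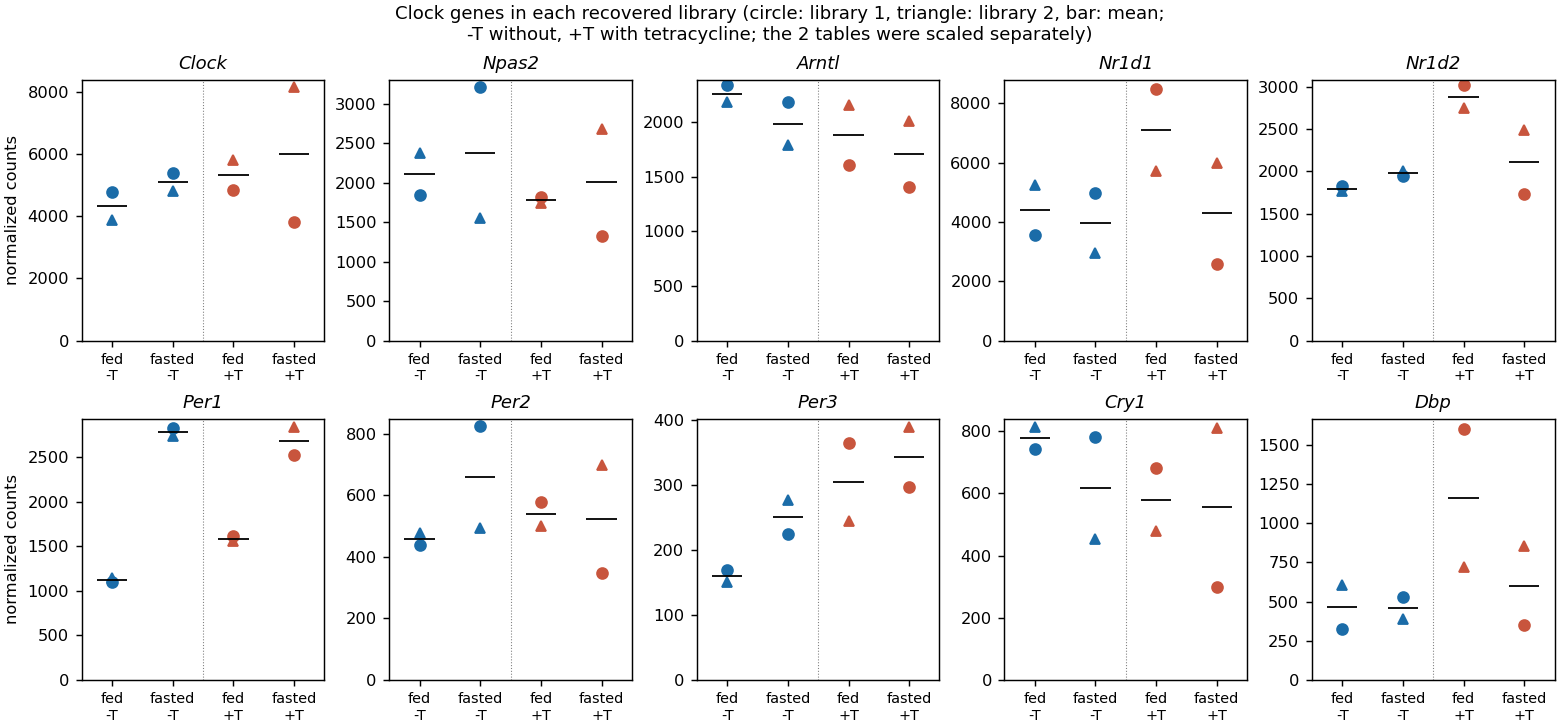
Normalized counts (vertical axis, from 0) of each clock gene in the 4 groups; circles and triangles are libraries 1 and 2, bars their mean, and the 2 tables, divided by a dotted line, were scaled separately. Per1 is higher in both fasted libraries than in both fed ones in each table, while most other members overlap.

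Per1 (ENSMUSG00000020893.18; GRCm38 chr11:69095217-69109960 in GENCODE M21, plus strand), the clock repressor that responds fastest to outside signals, was read at 3085 and 2542 counts in fasted against 1110 and 1139 counts in fed libraries without tetracycline. As normalized counts these were 2829.9 and 2734 in fasted against 1102 and 1144 in fed libraries. The groups stood well apart, and the libraries of a group nearly coincided. The authors' deposited table gave a log2 change of 1.31 (SE 0.25), a 2.48-fold rise, with an adjusted p of 4.82e-05, which ranked 85th of the 18100 genes by p.

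With tetracycline, Per1 was 2524 and 2839.7 in fasted against 1609.6 and 1553 in fed libraries. Both fasted libraries again lay above both fed ones. The authors' deposited table gave a log2 change of 0.76 (SE 0.36), a 1.70-fold difference, which was not called (p 0.0343, adjusted p 0.860). By distance over the 2 fasting changes, the 3 genes nearest to Per1 among 12491 with a mean of at least 50 were Thpo (log2 changes of 1.33 without and 0.70 with tetracycline, distance 0.066), Pla2g5 (1.25 and 0.80, distance 0.074) and Casp4 (1.22 and 0.75, distance 0.085).

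Per2, the paralogue of Per1 that carries much of the daily feedback, was 825 and 495 in fasted against 438 and 476 in fed libraries without tetracycline. Both fasted values lay above the fed ones, the lower of them by a narrow margin, and the authors' deposited log2 change was 0.53 (SE 0.34, adjusted p 0.639). It was 0.11 without fasted library 1 and 0.85 without fasted library 2. With the antibiotic it was 349 and 700.3 in fasted against 579 and 501.5 in fed libraries, so that the fasted pair spanned the fed pair, with a change of -0.04 (SE 0.50).

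Per3, a non-essential member of the family, was 224 and 277.5 in fasted against 169 and 151 in fed libraries without tetracycline. These did not overlap, and the authors' deposited log2 change was 0.65 (SE 0.35, adjusted p 0.518). With tetracycline the values were 296 and 389 in fasted against 365 and 244 in fed libraries, which overlapped, with a change of 0.17 (SE 0.46).

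Cry1, the partner of the PER proteins and a strong repressor of CLOCK:ARNTL, had lower means in fasted mice in both tables and was not called. It was 781 and 453 in fasted against 743 and 814 in fed libraries without tetracycline, a log2 change of -0.34 (SE 0.34) in the authors' deposited table. With tetracycline it was 299.5 and 810.4 in fasted against 680.4 and 480 in fed libraries, with a change of -0.07 (SE 0.58). The fasted libraries differed from each other more than the groups did, in each table. With one library left out, the Cry1 change ran from -0.78 to 0.004 without tetracycline and from -0.95 to 0.48 with it.

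The activators showed no called change. Clock was 5400.1 and 4821 in fasted against 4774 and 3893 in fed libraries without tetracycline, which did not overlap by a small margin, with a log2 change of 0.24 (SE 0.26) in the authors' deposited table. In the tetracycline table its fasted libraries, at 3813 and 8168, lay on either side of the fed ones, at 4838 and 5813 (change 0.17, SE 0.49).

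Npas2, the relative of Clock that can take its place, was 3206 and 1555 in fasted against 1848 and 2371 in fed libraries without tetracycline. The tetracycline libraries gave 1321 and 2684 against 1813 and 1735. The fasted pair spanned the fed pair each time, and the authors' deposited log2 changes were 0.17 (SE 0.36) and 0.17 (SE 0.48). Arntl, the activator without which the clock stops, was 2182.2 and 1785 in fasted against 2339 and 2182.1 in fed libraries without tetracycline. With the antibiotic it was 1409 and 2011 against 1609 and 2157. Its values lay in the narrowest range of the 3 activators, with changes of -0.19 (SE 0.26) and -0.14 (SE 0.42). For Arntl the 95% interval ran from -0.71 to 0.33 without tetracycline, so a fall of up to 0.71 or a rise of up to 0.33 on the log2 scale lies within the error.

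The receptor genes and Dbp were not called in either table, and with tetracycline their fasted means were below their fed means. Nr1d2 was 1943 and 2009 in fasted against 1826 and 1764 in fed libraries without tetracycline, a change of 0.14 (SE 0.25) in the authors' deposited table. In mice given tetracycline it was 1737 and 2487 in fasted against 3018 and 2746 in fed libraries, a change of -0.45 (SE 0.40), which was -0.73 without fasted library 2 and -0.21 without fasted library 1. Neither set overlapped, and the directions were opposite.

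Nr1d1, the more abundant of the receptor pair, was 4983 and 2956 in fasted against 3544 and 5254 in fed libraries without tetracycline, and the ranges overlapped in part. In the tetracycline table it was 2596 and 5994 in fasted against 8495 and 5705 in fed libraries, where 1 fasted library lay within the fed range. The authors' deposited changes were -0.15 (SE 0.34) and -0.73 (SE 0.53). With one library left out they ran from -0.57 to 0.18 without tetracycline and from -1.45 (without fasted library 2) to -0.24 (without fasted library 1) with it. The library kit keeps no strand, and Nr1d1 shares 263 exon bases with Thra on the opposite strand, so reads there cannot be told apart; Thra had log2 changes of -0.05 and 0.20, not called, in the authors' deposited tables.

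Dbp, whose RNA has one of the widest daily swings known, was 530.2 and 387 in fasted against 327.5 and 609 in fed libraries without tetracycline. Tetracycline libraries had 350.5 and 854 in fasted against 1603 and 722 in fed libraries, so that 1 fed library stood above all others. The authors' deposited changes were -0.03 (SE 0.38) and -0.95 (SE 0.61, p 0.121). With one library left out they ran from -0.41 to 0.49 without tetracycline, and from -1.73 (without fasted library 2) to -0.26 (without fed library 1) with it. Dbp shares 539 exon bases with Sphk2 on the opposite strand, whose changes of -0.02 and 0.08 were not called.

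**Figure D2:**
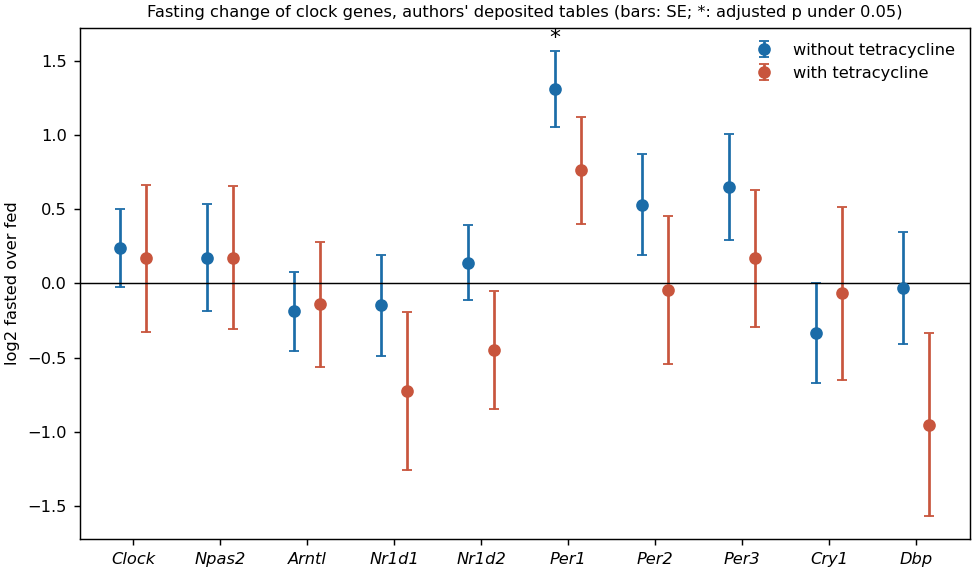
Log2 change of fasted over fed (vertical axis) of each clock gene in the authors' deposited tables without and with tetracycline; bars are the standard error and the star marks an adjusted p under 0.05. Per1 without tetracycline, at 1.31, is the only member with a star, and 8 of the 10 lie lower with tetracycline than without, none of these differences being called. Among the 8, Npas2 is tied (difference -0.0007).

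With tetracycline, 0 of the 10 members were called by the authors' DESeq2 test, beside 0.600% of 17993 genes, and 1 of them (Per1) had an unadjusted p under 0.05. The members' median log2 change was -0.06, beside -0.02 for all genes tested, with 4 above and 6 below 0. Both fasted libraries lay above both fed ones for 1 member (Per1) and below for 1 (Nr1d2), beside 14.7% and 16.1% of 9320 genes. The members' standard errors ran from 0.36 to 0.61, against 0.25 to 0.38 without tetracycline.

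Whether tetracycline altered the fasting change was tested per gene as the difference of both deposited changes (a Wald test, adjusted over 17571 genes). It called 0 of the 10 members, beside 0.0228% of all genes, and 0 had an unadjusted p under 0.05. Over all genes this statistic had a robust SD (a spread little moved by extreme genes) of 0.718. That is narrower than the normal curve used, so the unadjusted p-values may be too large. Divided by this SD, the statistic still called 0 members. The change was lower with tetracycline for 8 members, of which Npas2 was tied (-0.0007) and Clock nearly so (-0.07, SE 0.56), and higher for 2. Over all genes tested, 49.97% were lower. The median difference was -0.51 beside 0.0003 for all genes. Single libraries carried much of this, an alternative chosen after seeing the data. The median was -0.13 without fasted library 1 of the tetracycline table, -0.16 without fasted library 1 of the other table and -0.21 without fed library 1 with tetracycline, and 4 members were above 0 in the first and the second of these. Without fasted library 2 it was -0.70 when left out of the tetracycline table and -0.50 when left out of the other, with 10 of the 10 members below 0 in each case. Per1 differed by -0.55 (SE 0.44, p 0.214, adjusted p 1), with a 95% interval from -1.41 to 0.32. Dbp had the largest difference of the 10 in size, -0.92 (SE 0.72, p 0.201), with an interval from -2.33 to 0.49. Its difference was -0.23 without fed library 1, -0.42 without fasted library 1 and -1.70 without fasted library 2 of the tetracycline table. The Per1 interval holds both no difference and one as large as its change without tetracycline.

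The members also differed between libraries of the same feeding state. With tetracycline, all 10 were higher in fasted library 2 than in fasted library 1, beside 55.5% of genes with a mean of 200 to 6000. The median absolute log2 ratio of that pair was 1.01 for the members and 0.43 for those genes. Cry1 stood furthest apart at 1.44, followed by Dbp at 1.28 and Nr1d1 at 1.21, and Per1 the least at 0.17. In the same pair, the summed counts of Lgr5 and Ascl2 were 2668 in library 1 and 667 in library 2, and the lymphocyte sums given above were also lower in library 2. The part of these cell types in the clock values was not tested.

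Among the fed libraries with tetracycline the order was reversed. Here 8 members were lower in library 2, most of all Dbp (log2 ratio -1.15), Per3 (-0.58) and Nr1d1 (-0.57), while Clock (0.26) and Arntl (0.42) were higher, beside 57.4% of genes higher in library 2. Dbp and Arntl thus differed in opposite directions between these 2 libraries of one group. Without tetracycline, fed library 2 had more Dbp (0.89) and Nr1d1 (0.57), and Arntl was nearly level (-0.10). Fasted library 2 without tetracycline had less of 8 members, with Npas2 at -1.04, beside 49.9% of genes higher in library 2.

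**Figure D3:**
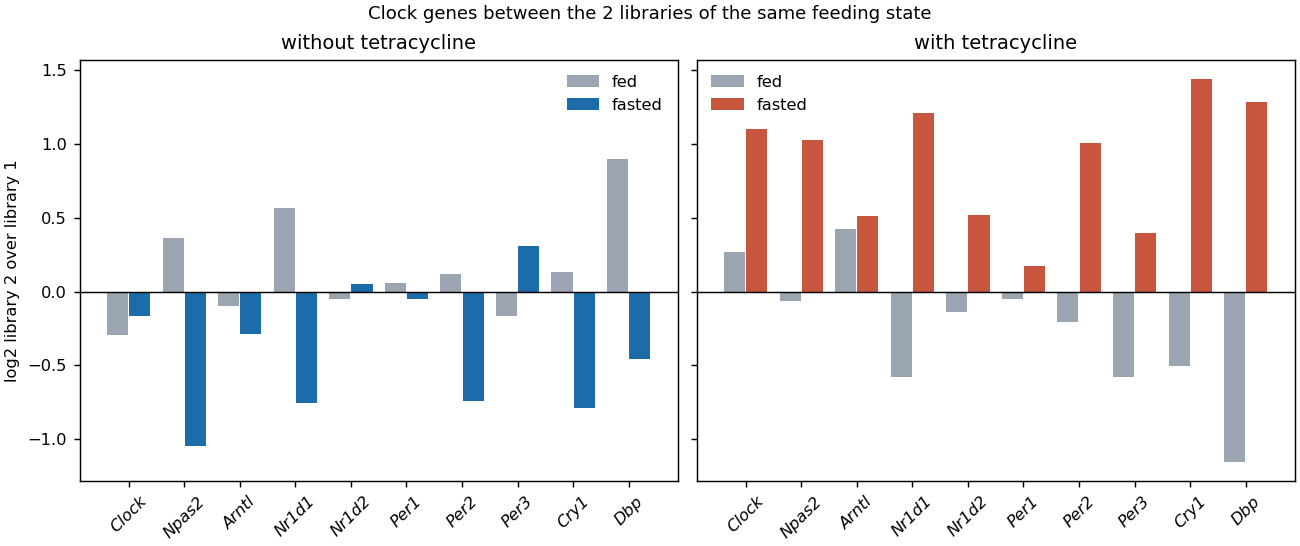
Log2 ratio of library 2 over library 1 (vertical axis) of each clock gene within fed and within fasted mice, without (left) and with (right) tetracycline. All 10 members are above 0 for the fasted pair with tetracycline, and Per1 is close to 0 in every pair.

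Levels with against without tetracycline cross separately scaled tables, so they were centred on the median ratio of 13194 genes (a log2 shift of 0.02 in fed against 0.07 in fasted mice) and not tested. They share their libraries with the fasting changes above. In fed mice Dbp was higher with tetracycline by 1.29, Per3 by 0.91, Nr1d1 by 0.67, Nr1d2 by 0.67, Per1 by 0.48, Clock by 0.28 and Per2 by 0.23 on the log2 scale. With fed library 1 of the tetracycline table left out, these were 0.61 for Dbp, 0.59 for Per3, 0.36 for Nr1d1, 0.60 for Nr1d2 and 0.45 for Per1. Cry1 was lower at -0.44, as were Arntl at -0.28 and Npas2 at -0.27. With one library left out, Arntl ran from -0.51 to -0.09 (without fed library 1 with tetracycline), Npas2 from -0.44 to -0.08 (without fed library 2 of the other table) and Cry1 from -0.71 (without fed library 1 with tetracycline) to -0.21. Clock then ran from 0.14 to 0.43 and Per2 from 0.12 to 0.32, so these directions held while the sizes did not.

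The fed pair with tetracycline did not overlap the fed pair without for 10 of the 10 members, beside 35.6% of 8985 genes in either direction. The members regulate one another and are not independent, and several gaps were small. After centring, the Clock pairs were only 0.0017 apart on the log2 scale, followed by Arntl at 0.03 and Npas2 at 0.05, while Nr1d2, at 0.57, was the furthest apart of the 10. The lymphocyte marker sum was also highest in 1 of these libraries (38379 in fed library 1 with tetracycline), and its part was not tested.

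In fasted mice 5 members were higher and 5 lower with tetracycline, with a median of -0.05, and 2 (Per1 and Per3) did not overlap, beside 16.5% of genes. Per3 was higher by 0.38 and Per1 lower, at -0.12. With one library left out, Per3 ran from 0.17 to 0.56 and Per1 from -0.21 to -0.04. Without the centring Per1 overlapped. Fed levels of Per1 were 1102 and 1144 without and 1609.6 and 1553 with tetracycline, while fasted levels lay between 2524 and 2839.7 in all 4 libraries.

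**Figure D4:**
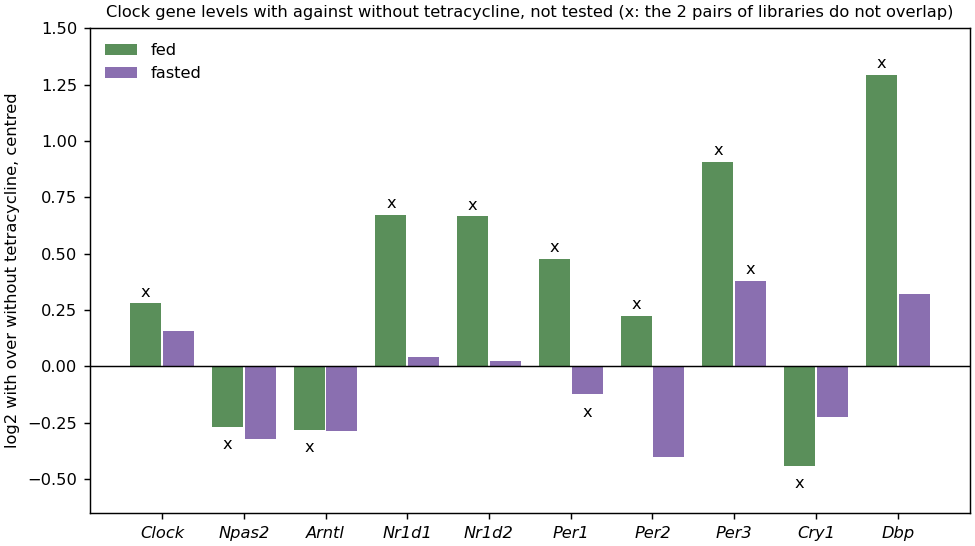
Centred log2 ratio of levels with over without tetracycline (vertical axis) for fed and fasted mice, from separately scaled tables and not tested; an x marks genes whose 2 pairs of libraries do not overlap. In fed mice all 10 members carry the mark, from 1.29 for Dbp (0.61 without fed library 1 with tetracycline) to -0.44 for Cry1.

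The other genes of the clock were read from lists written with earlier results of these data known. Of 12 further repressors, kinases and ubiquitin ligases, 12 had an adjusted p without and 11 with tetracycline, and 0 were called in either of the authors' deposited tables, beside 2.27% and 0.600% of all genes. In this list 0 genes without and 1 with tetracycline had an unadjusted p under 0.05. The one was Bhlhe40, a repressor that competes at the E-box, named after its values were seen. It had a change of -0.75 (SE 0.35, p 0.0331), with 2666 and 2472 normalized counts in fasted against 4342 and 4313 in fed libraries. Without tetracycline the fasted values of Bhlhe40, 4825 and 3464, also lay below the fed ones, 5012 and 6228, with a change of -0.44 (SE 0.29). The list's median change was 0.06 without and -0.06 with tetracycline, near that of all genes. Of the 6 genes of Dbp's relatives Tef and Hlf, their antagonist Nfil3 and the ROR receptors, 0 were called in either table (0 also at an unadjusted p under 0.05), with medians of 0.49 and 0.55. Of 12 clock-controlled output genes, 11 had an adjusted p in each table and 0 were called, with 2 and 1 at an unadjusted p under 0.05. These also lie outside the rule and were named after their values were seen: Alas1, the first enzyme of heme synthesis (log2 change -0.62), and Noct, a phosphatase (0.60), without tetracycline, and Por, the electron donor of cytochrome P450 enzymes (1.39), with it. In the other table Alas1 was at -0.07, Noct at 0.06 and Por at 0.41.

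The glucocorticoid-responsive list counts Per1 as one of its genes, and its difference from the other lists was not tested. Of its 8 genes, 3 were called higher without tetracycline (Fkbp5, Zbtb16 and Per1) and 2 with it (Fkbp5 and Zbtb16), and 0 were called lower. Over all genes, 1.06% were called higher and 2.27% in either direction without tetracycline, and 0.600% in either direction with it. Its median log2 change was 1.19 and 1.25, beside 0.0067 and -0.02 for all genes tested. Fkbp5, a chaperone of the glucocorticoid receptor, changed by 2.65 (SE 0.31, adjusted p 2.03e-14) and 2.22 (SE 0.55, adjusted p 0.0147) in the authors' deposited tables. Zbtb16, a transcription factor, was 579 and 1148 in fasted against 23.8 and 34.2 in fed libraries without tetracycline. With tetracycline it was 629.5 and 2563 in fasted against 186 and 114 in fed libraries, apart in both tables (adjusted p 2.7e-26 and 0.000339). Dusp1, named after its values were seen, was the one gene of the list below 0 in both, at -1.16 and -0.34, and was not called.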

How the data were processed

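The members and lists were chosen with earlier results of these data known. Per the file headers, the deposited tables hold the columns DESeq2 writes: a mean signal (counts over size factors, averaged over libraries), a log2 fold change with its standard error, a score (the change over its standard error), and p-values with a Benjamini-Hochberg adjustment. The submitters' processing notes name Salmon, DESeq2 and mm10. Of the deposited identifiers also found in GENCODE M21, 96.3% without tetracycline carried a version number 1 above that of M21, so the annotation release used is not given in the sources used here; positions are those of M21.

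Whole counts were solved for genes with a mean of 1 to 6000. Sums of 4 whole counts times fixed steps had to give the mean. A negative binomial fit of those counts had to give the deposited fold change, unless a single set of counts gave the mean. Only splits of the mean near the deposited fold change were searched. For genes with a mean of 200 to 6000, 100.00% in each table gave a single solution in the range searched, with a median gap to the fold change of 4.2e-07 and 8.88e-07 (log2). Counts of the decoded kind may be rounded estimates. The recovered counts entered no test. Calls are the authors' adjusted p under 0.05. The difference of changes was divided by the root of its summed squared standard errors (two-sided normal p, Benjamini-Hochberg over all genes where each table gives an adjusted p). The mean of each side followed from the overall mean and the fold change, and log2 ratios across tables used a pseudocount of 1. Genes named are all members, called genes of the lists, and the 3 nearest to the member with the largest statistic; markers, genes that share exon bases with a member, and genes the text says were named after their values were seen fall outside this rule. Intervals are 1.96 standard errors to each side. Scripts were tested on simulated data and used Python 3.11.15, numpy 2.4.6, pandas 2.3.3 and scipy 1.17.1. There were 0 unused per-sample columns. Alternatives were the adjusted p, its gene set, the scaling of the difference statistic by its robust SD, pseudocounts, centring and leaving out each recovered library.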

Additional observations from a re-analysis of the deposited data

Results flagged for a closer look

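The fasting change of Nr1d2 pointed in opposite directions in the 2 tables, with both fasted libraries above both fed ones without tetracycline and both below with it. The change was lower with tetracycline by a difference of -0.59 (SE 0.47), which the Wald test did not call (p 0.213, adjusted p 1). With one library of the tetracycline table left out, the difference ran from -0.87 (without fasted library 2) to -0.35 (without fasted library 1).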

How the results depend on the processing

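The number of members called was 1 without tetracycline, 0 with it and 0 for the difference under every alternative to the adjusted p and its gene set that was run, and the adjusted p of Per1 without tetracycline stayed between 3.78e-05 and 6.8e-05. With one library left out, the Per1 change without tetracycline ran from 1.28 to 1.34. The same step turned the direction of 4 members without tetracycline and of 6 with it, 0 of them called. The members' median change with tetracycline then ran from -0.56 (without fasted library 2) to 0.37 (without fasted library 1), and that without tetracycline from -0.08 (without fasted library 1) to 0.26. The median level with against without tetracycline in fasted mice ran from -0.53 (without fasted library 2 with tetracycline) to 0.29 (without fasted library 1 with tetracycline), and in fed mice from 0.38 to 0.43. Members whose libraries did not overlap numbered 6 to 9 without and 4 to 9 with tetracycline (65.5% to 76.1% and 50.1% to 78.4% of genes), an alternative chosen after seeing the data, and such counts rise by construction with fewer libraries. Without fasted library 2 of the tetracycline table, 1 member was higher and 8 lower in fasted mice, beside 28.6% and 44.4% of genes, and without fasted library 1, 6 were higher and 1 lower, beside 42.0% and 36.4%. The median difference between the fasting changes ran from -0.70 to -0.13. At an adjusted p under 0.01, the called genes of the wider lists with tetracycline numbered 1 in place of 2. Without centring, also chosen afterwards, 1 member in place of 2 did not overlap between tables in fasted mice, and 10 in fed mice. No paired analysis was possible because each labelled group has 1 sample and the tables carry no replicate numbers. Each side held 2 libraries, and the width of the intervals given sets what could be resolved.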

Other observations

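Ratios of counts within a library need no scaling and can be set side by side across both tables; these were chosen after the values were seen, and not tested. The count of Per1 over that of Per2 was 3.43 and 5.53 in fasted against 2.52 and 2.40 in fed libraries without tetracycline. With tetracycline it was 7.23 and 4.06 in fasted against 2.78 and 3.10 in fed libraries. All 4 fasted libraries thus lay above all 4 fed ones, whatever the tetracycline group. The count of Per1 over that of Arntl separated them as well, from 1.30 to 1.79 in fasted against 0.47 to 1 in fed libraries. The count of Per1 over that of Dbp did not separate them: its lowest fasted value, 3.32 in fasted library 2 with tetracycline, was below its highest fed value, 3.36 in fed library 1 without. Each of these ratios holds Per1, the called member. How many other gene pairs separate the libraries was not counted.

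The count of Nr1d1 over that of Arntl, its target, behaved differently. It was 1.51 and 2.41 in fed against 2.28 and 1.66 in fasted libraries without tetracycline, and 5.28 and 2.64 in fed against 1.84 and 2.98 in fasted libraries with it. Fed library 1 with tetracycline was the highest of the 8, and there Dbp and Arntl had nearly equal counts, a ratio of 0.997, against 0.14 to 0.42 in the other 7.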
